A study of Homo sapiens with 6 samples.

Results

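The 36 genes described here encode nucleolar and ribosome assembly proteins, and they were taken by symbol from a table of 23384 gene identifiers, in which all 36 were found. Read counts came from 6 RNA-seq libraries of CAL27, an established cell line from a human squamous cell carcinoma of the mouth. For 3 libraries, the vector controls, the cells had been transfected with vector alone and their genotype is given as WT. For the other 3, called OE libraries here after their label, the cells had been transfected with a plasmid meant to overexpress TNFAIP2, a gene induced by tumour necrosis factor. The labels name neither the promoter of the plasmid nor a time of harvest. They do not state whether replicates were separate cultures, so the p-values rest on a spread between libraries that may be technical.

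Ribosomes are made in the nucleolus, where RNA polymerase I transcribes ribosomal DNA into a long precursor RNA. Small nucleolar ribonucleoproteins (snoRNPs) guide its chemical modification and cleavage: box C/D particles, built on FBL, NOP56 and NOP58, direct methylation, and H/ACA particles, built on DKC1, GAR1, NHP2 and NOP10, direct pseudouridylation. Assembly factors then fold and trim the precursors of the small and the large subunit. Genes of this set are textbook targets of the transcription factor MYC, which binds the E-box CACGTG, and high nucleolar activity is a common feature of carcinoma cells.

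Since the E-box is the sequence most closely tied to this gene set, it was looked for in RefSeq promoter windows (GRCh38.p14) that run from 250 bases before to 50 bases after each annotated start. Windows were found for 32 of the 36 genes, and those of NOP58, NOLC1, RRS1 and BOP1 were not used here. CACGTG, which reads the same on both strands, was present for 17 of the 32 genes (53.1%). The same letters were present for 13.2% of the 7393 tested protein-coding genes with a window and for 8.77% of the 27305 genes in the table of promoters. The windows of 5 of the 17 genes are printed to show where the E-box lies in genes whose levels are given in detail below. The expression tests did not use the windows, but values of genes with and without the E-box are set side by side below. The windows of NCL, WDR12, NPM1, POLR1A, RRN3, POLR1C, NOP16, TSR1 and NHP2, also given library by library, lack the letters. GAR1 and PES1 have them and are not printed. Of the 5, RRP9, NOP10 and WDR43 had groups that did not overlap, and FBL and DDX21 passed without vector control 3. These windows thus do not stand for the set. The 5 are given 5′ to 3′ on the strand of the gene, with CACGTG in capitals. They are RRP9 (chr3:51941855-51942154, minus strand), NOP10 (chr15:34343087-34343386, minus), WDR43 (chr2:28894417-28894716, plus), FBL (chr19:39846330-39846629, minus) and DDX21 (chr10:68956397-68956696, plus, at one of 2 annotated starts).
RRP9: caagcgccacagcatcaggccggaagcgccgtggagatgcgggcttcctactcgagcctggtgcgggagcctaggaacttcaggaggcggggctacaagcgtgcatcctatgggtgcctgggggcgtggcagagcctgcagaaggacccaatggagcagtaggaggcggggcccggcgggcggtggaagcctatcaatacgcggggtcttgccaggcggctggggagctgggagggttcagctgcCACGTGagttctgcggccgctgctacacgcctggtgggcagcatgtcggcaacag
NOP10: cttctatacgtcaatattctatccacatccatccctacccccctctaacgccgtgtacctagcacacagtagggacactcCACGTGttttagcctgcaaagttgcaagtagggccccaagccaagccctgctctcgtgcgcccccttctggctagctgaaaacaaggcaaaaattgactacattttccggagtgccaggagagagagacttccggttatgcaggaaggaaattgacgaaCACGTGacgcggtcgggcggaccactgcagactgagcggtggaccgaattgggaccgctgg
WDR43: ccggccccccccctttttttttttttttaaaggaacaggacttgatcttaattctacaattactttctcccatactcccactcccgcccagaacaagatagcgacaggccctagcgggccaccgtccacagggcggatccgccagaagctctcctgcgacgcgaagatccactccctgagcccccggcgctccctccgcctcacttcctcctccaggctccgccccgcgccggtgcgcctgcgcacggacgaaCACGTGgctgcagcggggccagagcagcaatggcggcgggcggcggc
FBL: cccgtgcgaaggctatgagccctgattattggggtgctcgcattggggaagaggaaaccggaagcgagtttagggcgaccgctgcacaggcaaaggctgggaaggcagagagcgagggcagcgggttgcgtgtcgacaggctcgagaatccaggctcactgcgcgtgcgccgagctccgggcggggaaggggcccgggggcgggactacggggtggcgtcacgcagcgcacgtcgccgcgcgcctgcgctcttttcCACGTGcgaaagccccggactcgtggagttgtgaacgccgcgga
DDX21: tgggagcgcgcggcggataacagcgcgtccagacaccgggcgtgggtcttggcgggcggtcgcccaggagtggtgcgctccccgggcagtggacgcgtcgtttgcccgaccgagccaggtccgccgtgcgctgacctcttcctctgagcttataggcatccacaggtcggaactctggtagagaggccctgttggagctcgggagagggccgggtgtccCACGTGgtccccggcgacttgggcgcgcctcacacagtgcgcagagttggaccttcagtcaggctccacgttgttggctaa

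In these windows the E-box began 5 bases before the start of RRP9, 170 and 11 bases before that of NOP10 and 31 bases before that of DDX21. In WDR43 it began at base 4 and in FBL at base 7 of the transcript. The other genes with the E-box were BYSL, EBNA1BP2, GAR1, GNL3, LYAR, MYBBP1A, NAT10, NOP14, NOP2, PES1, PNO1 and UTP20. A match to these letters is not a measure of binding.

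The libraries held between 3092261 and 3527161 counts. All 12 squamous epithelial markers looked up had a mean of at least 1 CPM (counts scaled to library size, here by the trimmed mean of M-values, TMM), with sums of 7229 to 9175 CPM in vector controls and 6617 to 7269 CPM in OE libraries. Of 6 fibroblast, 4 endothelial and 6 leukocyte markers, 1 each reached that level. Melanocyte or neural markers reached it for 2 of 4, with sums of 157 to 209 CPM in vector controls and 136 to 175 CPM in OE libraries, and their part in the results was not tested. TNFAIP2 under its own name had 51.3 ± 17.3 CPM in vector controls and 44.3 ± 6.46 CPM in OE libraries (SD, n = 3). Its log2 fold change, OE minus control, was -0.21 (SE 0.28), and the groups overlapped. TNFAIP2 was thus not raised in these counts, which did not bear out the overexpression label. The cause was not tested. At many loci of this table, features on the other strand held more counts than the gene itself. The own-strand ratio of a library is here the median, over 366 features contained in a protein-coding gene on the other strand, of the gene's count over that of the feature, with 0.5 added to both. It was 0.103, 0.0995 and 0.180 in vector controls 1 to 3 and 0.198, 0.137 and 0.194 in OE replicates 1 to 3. Control replicate 3 thus lay among the OE libraries in this measure.

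No gene of the set passed the test between the groups. Of the 36 genes, 35 had enough counts to be tested, and 0 passed an edgeR quasi-likelihood test at a Benjamini-Hochberg adjusted p of 0.05, where the share called among all 11851 tested genes was 0%. The adjusted p of the 35 ran from 0.830 to 0.999. Log2 fold changes, OE minus control, were positive for 28 of 35 (80.0%), with a median of 0.25. Positive values were also the more common kind among all tested protein-coding genes, at 62.0% of 9057 with a median of 0.13, and made up 51.9% of all tested genes, with a median of 0.024. Before adjustment, p lay below 0.05 for 2 of the 35, RRP9 and NOP10, both higher. Among all tested genes, 1.83% were below that limit and higher, and 3.06% were below it and lower. The nucleolar genes whose 3 OE libraries all lay above all 3 controls were RRP9, NOP10, WDR43 and NCL, 4 of 35, where 5.54% of all tested genes and 6.79% of tested protein-coding genes had that pattern. None had the opposite pattern, which 4.92% of all tested genes had. The members were chosen with earlier results of these data known, so these shares are a description and not a test.

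**Figure D1:**
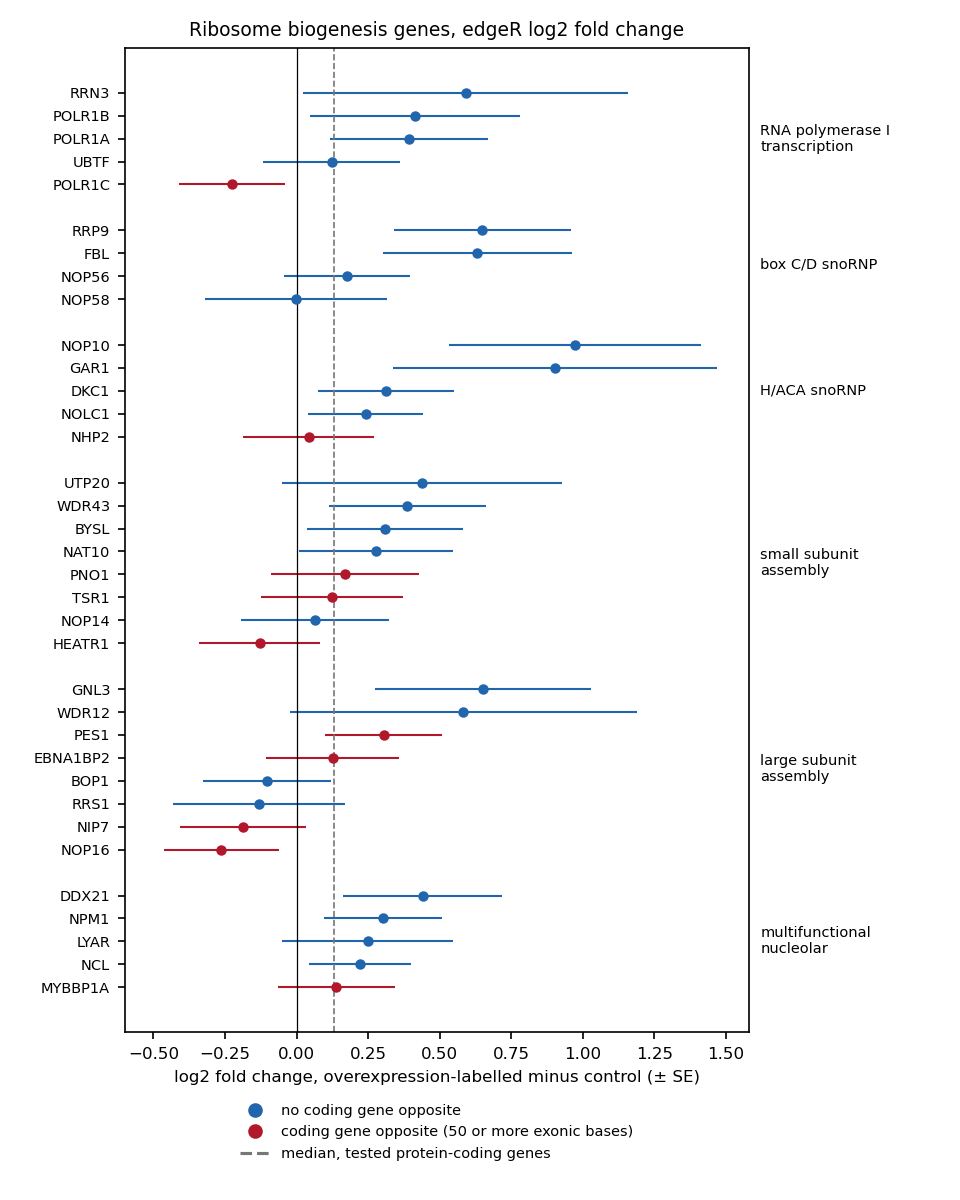
edgeR log2 fold changes with standard errors for the 35 tested genes, grouped by role, in blue without and in red with a protein-coding gene opposite their exons. The dashed line is the median of tested protein-coding genes, 0.13, and the lowest values belong to NOP16 and POLR1C, which are both red.

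Genes that transcribe ribosomal DNA had mostly positive values and wide errors. POLR1A, the largest subunit of RNA polymerase I (ENSG00000068654), had 32.5, 28.1 and 50.1 CPM in vector controls 1 to 3 and 45.2, 47.8 and 52.7 CPM in OE replicates 1 to 3. Vector control 3 lay within the range of the OE libraries, and the log2 fold change was 0.39 (SE 0.28). POLR1B, the second largest subunit, had a log2 fold change of 0.41 (SE 0.37) and UBTF, which opens ribosomal DNA for transcription, one of 0.12 (SE 0.24). RRN3, the factor that makes the polymerase ready to initiate, was low, at 2.89, 3.55 and 10.3 CPM in vector controls and 9.41, 4.66 and 11.4 CPM in OE libraries. Its value was 0.59 (SE 0.57), and 3 features named as its pseudogenes held 317 counts over the 6 libraries against 149 for RRN3 itself, so its reads may be shared with these copies. POLR1C, a subunit shared with RNA polymerase III, lay the other way at -0.23 (SE 0.19), with 426, 399 and 348 CPM in vector controls and 320, 357 and 325 CPM in OE libraries. Here too vector control 3 lay within the range of the OE libraries.

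Box C/D genes held some of the larger differences of the set. RRP9 (ENSG00000114767, chromosome 3, 51933429 to 51941904, minus strand, GRCh38), a component of the particle that cleaves the small subunit precursor, had 18.4, 18.4 and 17.7 CPM in vector controls and 28.5, 25.6 and 31.4 CPM in OE libraries. The groups did not overlap and the controls lay close together. The log2 fold change was 0.65 (SE 0.31, unadjusted p = 0.0469, edgeR adjusted p = 0.830). FBL, the methyltransferase fibrillarin (ENSG00000105202, chromosome 19, 39834458 to 39846379, minus strand), had 70.9, 127 and 199 CPM in vector controls and 237, 145 and 233 CPM in OE libraries. Its 6 libraries differed by up to 3.35-fold, the groups overlapped through vector control 3, and the log2 fold change was 0.63 (SE 0.33, edgeR adjusted p = 0.830). The scaffold proteins of the same particle differed less. NOP56 had 84.03 ± 14.1 CPM in vector controls and 95.04 ± 2.63 CPM in OE libraries (SD, n = 3), and its log2 fold change was 0.18 (SE 0.22). NOP58 had 23.3 ± 3.80 and 23.3 ± 4.47 CPM, a log2 fold change of -0.0018 (SE 0.32) whose sign turned under several alternatives.

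All 5 H/ACA genes had positive values, of which that of NHP2 turned with TMM from protein-coding genes (-0.083), with the own-strand covariate (-0.0051) and without OE replicate 1 (-0.12). NOP10, the smallest core protein of the particle (ENSG00000182117, chromosome 15, 34341719 to 34343136, minus strand), had 4.70, 7.74 and 8.55 CPM in vector controls and 18.6, 12.8 and 10.1 CPM in OE libraries. The groups did not overlap, at counts of 13, 24 and 29 in vector controls and 71, 44 and 38 in OE libraries. The log2 fold change was 0.97 (SE 0.44, unadjusted p = 0.0376, edgeR adjusted p = 0.830), the highest of the 35. GAR1 was also low in counts and less even, at 1.81, 8.07 and 4.72 CPM in vector controls and 13.6, 6.99 and 6.92 CPM in OE libraries, a value of 0.90 (SE 0.57). DKC1, the pseudouridine synthase, had 68.02 ± 12.6 and 84.5 ± 15.1 CPM (SD, n = 3), a value of 0.31 (SE 0.24). NOLC1, a chaperone of these particles, had a value of 0.24 (SE 0.20). NHP2 had 84.2, 72.6 and 78.7 CPM in vector controls and 98.3, 76.3 and 67.9 CPM in OE libraries, so that its groups overlapped fully and its value was 0.042 (SE 0.23).

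Small subunit assembly genes gave 7 positive values of 8, with a median of 0.22. WDR43, a protein of the small subunit processome, had 44.1, 27.1 and 43.3 CPM in vector controls and 59.9, 45.2 and 44.7 CPM in OE libraries. Its groups did not overlap, but the highest control and the lowest OE library were nearly equal, and the log2 fold change was 0.39 (SE 0.27). UTP20, a large scaffold of the same structure, had a value of 0.44 (SE 0.49) at 6.33 ± 1.09 and 8.56 ± 1.88 CPM. BYSL had a value of 0.31 (SE 0.27), and NAT10, which acetylates ribosomal RNA, one of 0.28 (SE 0.27). PNO1 and TSR1, which act late in the maturation of the small subunit, had values of 0.17 (SE 0.26) and 0.12 (SE 0.25). TSR1 had 82.4, 122 and 183 CPM in vector controls, a wider range than the 126 to 152 CPM of the OE libraries. NOP14 had a value of 0.065 (SE 0.26). HEATR1, which also serves transcription of ribosomal DNA, was the negative one at -0.13 (SE 0.21).

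Large subunit assembly genes were evenly divided, with 4 positive values of 8 and a median of 0.012. The complex of PES1, BOP1 and WDR12 processes the large subunit precursor, and its genes did not share a direction. PES1 had 110, 125 and 142 CPM in vector controls and 164, 138 and 165 CPM in OE libraries, a value of 0.30 (SE 0.20). BOP1 had 214, 136 and 119 CPM in vector controls and 141, 152 and 143 CPM in OE libraries, a value of -0.10 (SE 0.22) that was 0.19 without vector control 1, its highest library. WDR12 had 6.15, 14.2 and 39.2 CPM in vector controls and 46.5, 21.9 and 21.6 CPM in OE libraries, a value of 0.58 (SE 0.61). Its libraries spanned 7.57-fold, the widest range of the tested genes, with vector control 3 second highest. GNL3, the nucleolar GTPase nucleostemin, had a value of 0.65 (SE 0.38) and EBNA1BP2 one of 0.13 (SE 0.23). The other 3 negative values were -0.13 (SE 0.30) for RRS1, -0.19 (SE 0.22) for NIP7 and -0.26 (SE 0.20) for NOP16. NOP16 had 411, 417 and 281 CPM in vector controls and 274, 341 and 310 CPM in OE libraries, with vector control 3 again on the side of the OE libraries. NOP2, a methyltransferase of large subunit RNA, had 4 to 13 counts per library and was not tested.

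The nucleolar proteins with several functions all had positive values, of which that of NPM1 turned with the own-strand covariate (-0.021). NCL, or nucleolin (ENSG00000115053, chromosome 2, 231453531 to 231483641, minus strand), had 768, 786 and 805 CPM in vector controls and 942, 900.0 and 909 CPM in OE libraries. The groups did not overlap and each varied little, at 786 ± 18.5 and 917 ± 22.3 CPM (SD, n = 3). The log2 fold change was 0.22 (SE 0.18, edgeR unadjusted p = 0.222, edgeR adjusted p = 0.837). This SE and p come from a fit that shares its estimate of spread among genes, so they do not measure the spread of NCL alone. NPM1, or nucleophosmin, had 291, 314 and 457 CPM in vector controls and 481, 374 and 455 CPM in OE libraries, a value of 0.30 (SE 0.21). Its pseudogene features, 6 in the table, held 1.64% as many counts as NPM1. DDX21, an RNA helicase that acts in ribosomal DNA transcription and RNA processing, had 47.4, 46.8 and 101 CPM in vector controls and 98.0, 84.5 and 83.6 CPM in OE libraries. Control replicate 3 was the highest of all its libraries, and the value was 0.44 (SE 0.28). LYAR and MYBBP1A, a repressor of ribosomal DNA transcription, had values of 0.25 (SE 0.30) and 0.14 (SE 0.20). Per exonic kilobase, the highest mean levels over the 6 libraries were those of NCL at 123, NOP16 at 118, NPM1 at 103, FBL at 77.6 and POLR1C at 65.3 CPM per kilobase, and that of UTP20 was 0.74. NOP16 and POLR1C have protein-coding genes on the other strand, whose reads their counts may include.

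The values differed by what lies on the other strand of each gene. By GENCODE 29 exons, 13 of the 36 genes have at least 50 exonic bases opposite another gene, and for 10 of them the other gene is protein-coding. These 10 are EBNA1BP2 (opposite CFAP57), HEATR1 (LGALS8), MYBBP1A (SPNS2), NHP2 (RMND5B), NIP7 (COG8), NOP16 (ARL10 and HIGD2A), PES1 (TCN2), PNO1 (ENSG00000273398), POLR1C (LRRC73, YIPF3 and XPO5) and TSR1 (SRR). The strand setting of the counting is not given in the sources used here. Reads at such overlaps can therefore not be assigned to one gene, and the levels given for any gene of the set may not be those of its sense transcript. Of these 10, 6 had positive values, with a median of 0.083, while of the 25 tested genes without a coding gene opposite 22 did, with a median of 0.31. Among all tested protein-coding genes the same split gave 40.1% positive values with a median of -0.10 for the 2438 with a coding gene opposite, and 70.1% with a median of 0.20 for the 6611 without. The difference between these classes is thus found across the table and is not particular to the nucleolar genes.

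The features opposite these genes were also looked at, from their own counts and without the members' own rows. They shared between 3.00% and 71.9% of their exonic bases with a member. Much of their counts may thus come from sequence outside the members. Of 14 such features in the table, 12 were tested, 0 passed (edgeR adjusted p from 0.830) and 2 had positive log2 fold changes, HIGD2A at 0.28 (SE 0.36) and YIPF3 at 0.67 (SE 0.47). The antisense gene NOP14-AS1 had 511 CPM in vector controls and 406 CPM in OE libraries, a log2 fold change of -0.33 (SE 0.20), while NOP14 had 52.8 and 55.2 CPM. SRR, opposite 1146 exonic bases of TSR1, had 1341 and 1105 CPM, a log2 fold change of -0.28 (SE 0.18), against 129 and 141 CPM for TSR1. SPNS2 was the one tested feature of these whose groups did not overlap, a pattern that 4.92% of all tested genes had with lower and 5.54% with higher values in OE libraries. It had 75.7 CPM in vector controls and 54.7 CPM in OE libraries, or -0.47 on the log2 scale (SE 0.24, edgeR adjusted p = 0.830). A further feature, chosen after its values were seen, is a lncRNA that lies within NOP58 on the other strand (ENSG00000286223, chromosome 2, 202302122 to 202303614, minus strand) and has no exon model in GENCODE 29. It had 889, 1166 and 891 counts in vector controls and 776, 1073 and 870 counts in OE libraries, where NOP58 itself had 54, 72 and 92 counts and 108, 67 and 83 counts. Its log2 fold change was -0.36 (SE 0.21, edgeR adjusted p = 0.830).

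Library by library, the genes without a coding gene opposite followed the own-strand ratio. Relative to each gene's mean over the 6 libraries, the median level of these 25 genes was 0.822, 0.794 and 1.04 in vector controls 1 to 3 and 1.22, 0.975 and 1.10 in OE replicates 1 to 3. The order of the 6 libraries was the same as that of the own-strand ratio, with vector control 3 above OE replicate 2. The share of all counts held by protein-coding genes had this order too. It was 50.3%, 50.2% and 56.0% in vector controls 1 to 3 and 57.6%, 53.4% and 56.4% in OE replicates 1 to 3. The order is thus found across the table and is not particular to the nucleolar genes. For the 10 genes with a coding gene opposite the medians were 1.04, 0.937 and 0.974 in vector controls and 1.003, 1.02 and 0.925 in OE libraries, without that order. Summed over all 36 genes, the level was 3739, 3729 and 4035 CPM in vector controls and 4346, 4050 and 4239 CPM in OE libraries, with NCL alone at 786 and 917 CPM on average. The sums of the 2 groups did not overlap, but vector control 3 and OE replicate 2 lay within 1 SD of each other. That separation rested on NCL. Without it the sums were 2971, 2943 and 3230 CPM in vector controls and 3404, 3150 and 3330 CPM in OE libraries. Vector control 3 then lay above OE replicate 2, and the groups overlapped.

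The median of the 35 genes moved with the libraries and the model. It was 0.34 without vector control 3, 0.35 without OE replicate 2 and 0.18 without OE replicate 1. The own-strand ratio averaged 0.128 in vector controls and 0.176 in OE libraries, so in a model that holds both, the ratio and the group are partly confounded. With that ratio as a covariate in edgeR, the median was 0.073 with 26 positive values, where all tested genes had a median of -0.014. FBL then had a value of 0.070, DDX21 of 0.036, NPM1 of -0.021 and WDR12 of -0.16. Without vector control 3, 3 of the 35 passed the edgeR test and all were higher, where 4.13% of 12443 tested genes were called higher and 3.28% lower. These were FBL at a log2 fold change of 1.05 (edgeR adjusted p = 0.00193, SE 0.22), WDR12 at 1.54 (SE 0.38, adjusted p = 0.00671) and DDX21 at 0.91 (SE 0.25, adjusted p = 0.0123). In all 3, vector control 3 lay within or above the range of the OE libraries. In the fit that left out that library, 610 of 9446 protein-coding genes were called in either direction. So were 450 of the 6938 without a coding gene opposite, the kind to which FBL, WDR12 and DDX21 belong. NOP10 and RRP9 did not pass there, and their log2 fold changes over all alternatives ran from 0.70 to 1.15 and from 0.53 to 0.82.

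The scaling of the libraries moved all genes together. With library totals in place of TMM, the median of all tested genes was 0.18, that of the 35 genes 0.42, and 32 of 35 (91.4%) were positive beside 65.2% of all tested genes. With TMM factors from protein-coding genes alone, these medians were -0.093 and 0.13, with 26 of 35 positive. Relative to all tested genes the median of the 35 thus lay 0.22 higher with TMM, 0.24 with library totals and 0.22 with factors from protein-coding genes, which is fixed by construction where a scaling moves all genes alike, and 0.088 higher with the own-strand covariate. Relative to tested protein-coding genes without a coding gene opposite, the 25 genes of that kind lay 0.11 higher with TMM and 0.099 higher once the own-strand ratio was a covariate.

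Genes with and without the E-box overlapped in their values. The 16 tested genes with CACGTG in a promoter window all had positive values, with a median of 0.35, though NOP14 (-0.22) and NAT10 (-0.029) turned with the own-strand covariate and NOP14 also with TMM from protein-coding genes (-0.051), without vector control 1 (-0.037) and without OE replicate 3 (-0.14). Of 15 with a window that lacks it, 11 had positive values, with a median of 0.18. RRN3 and WDR12, which lack it, lay above NOP14, EBNA1BP2, MYBBP1A and PNO1, which have it. RRN3 (SE 0.57) and WDR12 (SE 0.61) themselves turned with the own-strand covariate (-0.27 and -0.16). POLR1A at 0.39 and POLR1B at 0.41, which also lack it and lay above the same genes, stayed positive under all alternatives. Of the 10 genes with a coding gene opposite, 4 have the E-box. The 2 features were not separated here, and the difference was not tested.

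Other ribosome biogenesis genes had values close to those of all tested protein-coding genes. Of 114 such genes listed by their known role, 110 were tested, 0 passed, 72 had positive values (65.5%) and the median was 0.12. By role, 7 of 9 further genes of RNA polymerase I transcription were positive, 2 of 4 of snoRNP assembly, 22 of 37 of small subunit assembly, 35 of 46 of large subunit assembly and 6 of 14 of the exosome, the nuclease complex that trims precursor RNA. The highest values at a mean of at least 5 CPM were those of the exosome gene EXOSC7 at 1.36 (SE 0.58), of MDN1, an ATPase that remodels the large subunit precursor, at 0.82 (SE 0.30), and of LSG1 at 0.74 (SE 0.34). MDN1 had 17.4, 16.8 and 23.6 CPM in vector controls and 32.7, 38.2 and 31.4 CPM in OE libraries, without overlap. The lowest were EFL1 at -0.95 (SE 0.65), EXOSC5 at -0.75 (SE 0.40) and MPHOSPH6 at -0.59 (SE 0.56), and each of these 6 had an edgeR adjusted p of 0.830 or above. The groups also did not overlap for EXOSC7, which was higher in OE libraries, and for EXOSC5, which was lower. Of the 110 genes, 11 were higher and 3 lower without overlap, beside 5.54% and 4.92% of all tested genes. The E-box was present in the windows of 23 of 96 genes of this list (24.0%). Without vector control 3, 7 of the 110 passed, of which 6 were higher, beside 4.13% called higher and 3.28% called lower among all tested genes. Among tested protein-coding genes, 610 of 9446 were called there in either direction.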

How the data were processed

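RNA-seq was done on 3 vector control and 3 OE libraries of CAL27, made with a stranded mRNA kit per the labels' protocols. The deposited values are raw read counts per gene, in whole numbers. Per the submitters' processing notes, the tools were HISAT2 2.2.0, Trim Galore 0.6.4 and HTSeq 0.13.5, and the builds GRCh38 and hg38. The annotation release and the strand option of the counting step were not given in the sources used here. Columns were matched to libraries by the names in the labels. The members and lists were chosen with earlier results of these data known. All genes were fitted with edgeR 4.0.16 (R 4.3.3): filterByExpr, TMM scaling, a robust quasi-likelihood fit, Benjamini-Hochberg adjustment and a threshold of 0.05. SE were derived from the F statistic, so like the p-values they rest in part on a spread shared among genes. On simulated data with 11851 genes, the fit called 43 of 100 genes changed 2-fold, 93 of 100 changed 4-fold and 5 others. The changed genes were drawn only from those above a minimum mean count. No shift shared by genes of a library was simulated, so these shares may not hold for low genes or for the present libraries. Counting depth limits low genes such as NOP10, and intervals beyond the SE were not computed. Alternatives used DESeq2 1.42.0, limma-voom (limma 3.58.1), other scalings and filters, a replicate block, an own-strand covariate and leaving out each library. Exon overlaps used GENCODE 29, with a model for 22828 of 23384 identifiers; opposite means at least 50 exonic bases and contained at least 90% of exonic bases with 60 counts in all. Ratios had 0.5 added to both counts. All members could be named; of the wider list, genes past the threshold or, as here, the 3 highest and 3 lowest values at 5 CPM or more. Chi-square per degree of freedom between replicates ran from 5.07 to 19.4, so each library was kept as a replicate.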

Additional observations from a re-analysis of the deposited data

How the results depend on the processing

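Of 35 tested genes, 22 kept the sign of their log2 fold change under every alternative run (15 per gene) and 13 changed it at least once. Turned signs were 0.16 for NOP58, 0.037 for HEATR1, 0.059 for RRS1 and 0.077 for BOP1 with library totals, and -0.051 for NOP14 and -0.083 for NHP2 with TMM from protein-coding genes. With the own-strand ratio covariate they were 0.060 for NOP16, -0.27 for RRN3, -0.22 for NOP14, 0.073 for HEATR1, 0.028 for NIP7, -0.029 for NAT10, -0.16 for WDR12, -0.0051 for NHP2, -0.24 for TSR1, 0.21 for RRS1, -0.021 for NPM1 and 0.17 for BOP1. Leaving out each library gave -0.14 to 0.24 for NOP14, -0.12 to 0.46 for TSR1, -0.37 to 0.27 for RRS1, -0.27 to 0.19 for BOP1, -0.16 to 0.14 for NOP58, -0.27 to 0.00087 for HEATR1 and -0.12 to 0.15 for NHP2. The cause of these turns was not tested. The median of the 35 genes was 0.42 with library totals and 0.073 with the covariate, and 0.18 to 0.35 when each library was left out, with 27 to 30 positive values. The summed level of the 36 genes differed between the groups by 377 CPM, and by 836 CPM with library totals. Genes past the threshold numbered 0 of 11851 with edgeR (580 at an unadjusted p below 0.05), 1 with TMM from protein-coding genes, 3 with DESeq2, 1 with limma-voom, 3 without a filter, 1 with at least 1 CPM in 3 libraries and 0 to 922 when each library was left out. In those fits 0 to 3 of the nucleolar genes, 0 to 7 of the wider list and 0 of the opposite features passed, and 0 of each with DESeq2 and limma-voom. With the replicate number as a replicate block, 0 genes passed and the median of the 35 was 0.24. Deviations of same-numbered libraries correlated at -0.25, 0.15 and -0.047, so the numbers were not taken as pairs. The median ratio of a member's count to that of its opposite feature differed by -0.034 between the groups, within its SD. It was 0.832, 0.651 and 0.605 in vector controls 1 to 3 and 0.643, 0.686 and 0.658 in OE replicates 1 to 3. These values did not have the order of the own-strand ratio over the whole table, which was the covariate and was higher on average in OE libraries. No contained feature lay opposite a member, so that alternative gave no value.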

Other observations

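Nucleolar genes often carry small nucleolar RNAs in their introns, and these were nearly absent from the counts. GENCODE 29 places 26 snoRNA or scaRNA genes within 8 of the 36 genes, all on the strand of the host. GNL3 holds 6, NOP56 5, NOP58 4, NCL and WDR43 3 each, DKC1 and TSR1 2 each and POLR1C 1. Of these RNAs, 4 had an entry among the deposited counts, with at most 4 counts in a library and 9 counts over all 6 libraries. The libraries were made with an mRNA kit, so these values do not measure the mature small RNAs, and no comparison of host and snoRNA was possible.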
